A study of Homo sapiens with 60 samples.

Results

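In osimertinib-treated wild-type PC9 cells, 2596 H3K27Ac regions passed the reproducibility limit that passed in none of the other 5 conditions. They were found by pooling the peaks of the 6 H3K27Ac lists with a global IDR of 0.05 or less (1.301 or more on the −log10 scale) on chromosomes 1 to 22, merging peaks that overlapped, and keeping merged regions that touched a passing peak of treated wild type alone. The IDR, or irreproducible discovery rate, is low where a peak ranks high, and alike, in both replicates. The regions made up 12.1% of 21390 merged regions, and 26.2% (Wilson 95% interval 25.4% to 27.1%) of the 9902 merged regions with a peak of treated wild type. The other 7306 treated wild-type regions, which also passed in at least 1 further condition, are the comparison set. Each of the 2596 regions was a single peak of its list.

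PC9 is a human lung adenocarcinoma line that depends on mutant EGFR, and osimertinib is an inhibitor of that kinase. CUT&RUN, in which a nuclease tethered by an antibody releases the chromatin bound there for sequencing, was run with antibodies to H3K27Ac, RAD21, PDS5A and H2A and with IgG as the background control. The 3 genotypes were wild type, a knockout of METTL7A, a methyltransferase-like protein, and Rescue cells, in which MYC-FLAG-tagged METTL7A was overexpressed on the knockout background, so knockout and Rescue share the deletion. Each genotype was left untreated or taken through osimertinib escalation from 100 nM over 6 to 8 weeks. Each antibody, genotype and treatment gave 2 samples and 1 deposited list that joins them. No source says that the 2 samples came from separate cultures, or whether the knockout is 1 clone.

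H3K27Ac is acetylation of lysine 27 on histone H3, laid down by p300 and CBP at active promoters and enhancers, and new acetylated sites are a usual readout of cells that switch regulatory programmes under drug. Cohesin is the ring complex that holds DNA loops together. RAD21 closes its ring, and PDS5A, a regulatory subunit, helps to set how long the ring stays on DNA. Cohesin loads and pauses at enhancers and promoters as well as at CTCF sites, so that RAD21 and PDS5A peaks are often found on acetylated regions.

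The set was chosen by passing H3K27Ac peaks, so the strength, width and H3K27Ac peaks described here carry no test. RAD21, PDS5A and IgG were not used by the rule. Even there, 1 list stood for each condition and regions of a list are not replicates, so shares carry Wilson 95% intervals for counting error only and no p-value. Depth is unknown beyond the 20 M read pairs that the labels planned per library, because read totals do not come with the lists. List length, which moves with depth and with background, differed widely. Passing H3K27Ac peaks numbered 10077 in treated and 5045 in untreated wild type. RAD21 had 16340 treated and 3635 untreated, and PDS5A 12323 and 1731. Its IgG list held 7509 deposited peaks against 1042 untreated and 164 to 2668 in knockout and Rescue cells. The part of these lengths in the results was not tested.

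The number of regions found in a single list mostly rose with list length, though treated wild type had more than the longer treated Rescue list. Beside the 2596 of treated wild type, 80 were found only in untreated wild type, 97 only in untreated knockout, 467 only in treated knockout, 2707 only in untreated Rescue and 1950 only in treated Rescue. Passing peaks numbered 10077 in treated wild type, 5045 in untreated wild type, 5420 in untreated knockout and 8383 in treated knockout. They numbered 14177 in untreated Rescue and 12991 in treated Rescue. With all 6 lists shortened to their strongest 5045 peaks, 1564 regions were private to treated wild type, a set derived anew from the shortened lists. At a global IDR of 0.01 in all 6 lists the number was 731, and at 0.1 it was 4058. Numbers for the other single-list sets at these settings are not given here.

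The regions private to treated wild type were weaker and narrower than the rest of the list. A region's strength was taken as the lower of its 2 replicate −log10 p values. This ran from 9.91 to 71.6 with a median of 13.9 and quartiles of 11.6 and 16.6, while the comparison set had a median of 16.97 and quartiles of 13.9 and 22.1. These values are the authors' own, depend on depth, and rank peaks only within a list. The first replicate value was the lower one in 2371 of 2596 regions (91.3%), with a median of 13.9 against 20.8 in the second replicate, and in 88.1% of the comparison set. Spearman's rho between the replicate values was 0.387 across the 2596 regions and 0.567 across the 7306, a description over peaks of the same libraries. Widths had a median of 1411.5 bp and ran from 234 to 11262 bp, against a median of 1763 bp.

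Most of the regions stood near the reproducibility limit. The global IDR lay between 0.01 and 0.05 for 2181 regions (84.0%), between 0.001 and 0.01 for 404, and at or under 0.001 for 11, while 63.0% of the comparison set lay in the first of these bands. When all 9902 treated wild-type regions were cut into 4 equal classes of strength, the share found in treated wild type alone was 40.8% in the weakest class, then 31.5% and 21.0%, and 11.5% in the strongest. The 284 private regions of the strongest class had lower replicate values of at least 20.7. Classes of width ran the same way, from 40.1% among the narrowest to 17.5% among the widest.

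**Figure D1:**
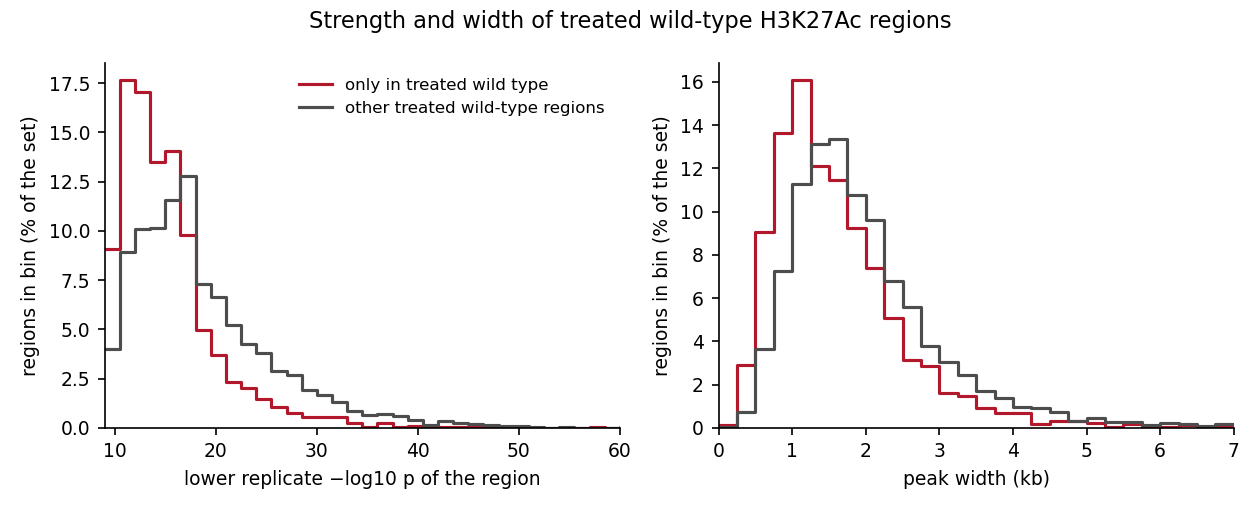
Left, the lower replicate −log10 p of each treated wild-type H3K27Ac region and, right, its width in kb, each as the percentage of the set per bin, for the 2596 regions only in treated wild type (red) and the 7306 others (grey). The red curves lie to the left, with medians of 13.9 against 16.97 and of 1411.5 against 1763 bp; values beyond 60 and beyond 7 kb are not drawn.

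Peaks lay close to the limit on either side of it. The 3 regions just inside it had −log10 IDR values of 1.30102, 1.30109 and 1.30117, with replicate values of 14.3 and 14.7, 10.1 and 18.1, and 10.2 and 17.6. The 3 treated wild-type peaks just outside it, with no passing peak elsewhere, had 1.30094, 1.30086 and 1.30048, with replicate values of 10.6 and 15.2, 14.8 and 14.7, and 12.6 and 14.6. Members and non-members on either side of the limit thus had overlapping replicate values.

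Regions private to treated wild type were mostly faint or missing in the other 5 H3K27Ac lists, and the degree differed by list. A deposited peak over the IDR limit was present in untreated wild type at 600 regions (23.1%), in untreated knockout at 495 (19.1%), in treated knockout at 1182 (45.5%), in untreated Rescue at 1218 (46.9%) and in treated Rescue at 1098 (42.3%). Over all merged regions with no passing peak in the list concerned, the corresponding shares were 65.1%, 61.2%, 81.2%, 76.8% and 78.5%. The private regions lay under the background share in each of the 5 lists, but the rule itself favours such a difference. Private regions had to fail the limit in all 5 lists, while background regions had to fail it only in the list concerned. Background regions could thus pass in other lists, and the same H3K27Ac lists chose the private regions. The comparison therefore carries no test, and no conclusion is drawn from it. The share in untreated wild type was 50.8% for the regions private at a global IDR of 0.01 and 53.1% with lists of equal length. The lowest shares were those of the untreated wild-type and untreated knockout lists, which were also the shortest, at 22245 and 23305 deposited peaks on these chromosomes against 38466 to 44401 in the other 3.

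The faint peaks were mostly far from the limit. Their median global IDR was 0.461 in untreated wild type, 0.417 in untreated knockout, 0.374 in treated knockout, 0.308 in untreated Rescue and 0.370 in treated Rescue. A global IDR of 0.1 or less was reached by 39, 30, 126, 185 and 140 of them in the same order. Among the 600 in untreated wild type, 297 (49.5%) had an IDR over 0.5. A region that narrowly missed the limit in another condition was therefore a minority case in each of the 5 lists.

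No deposited H3K27Ac peak of any strength was present in the other 5 lists at 940 regions, 36.2% (34.4% to 38.1%). The rest had a faint peak in 1 list (406 regions), 2 lists (347), 3 lists (375), 4 lists (272) or all 5 (256). The same share was 1.88% of the 2707 regions only in untreated Rescue (51 regions), 3.95% of the 1950 only in treated Rescue (77) and 0.857% of the 467 only in treated knockout (4). These shares come from the H3K27Ac lists that chose the regions, so the difference carries no test. The share in treated wild type depended on the settings: it was 18.9% at a global IDR of 0.01 in all lists, 45.3% at 0.1 and 17.1% with lists of equal length. Shares of the other single-list sets at these settings are not given here.

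Faint peaks were found in both treated and untreated lists. The treated ones were those of knockout and Rescue, and the untreated ones those of wild type, knockout and Rescue. These lists differed in number and length, so the counts do not compare treated with untreated on an equal footing. Of the 1656 regions with 1 or more, 1113 had them in both treated and untreated lists, 322 in treated lists alone and 221 in untreated lists alone. The most frequent combination after all 5 was treated knockout with both Rescue lists (231 regions), followed by treated knockout alone (150). Only 24 regions had their sole faint peak in untreated wild type.

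**Figure D2:**
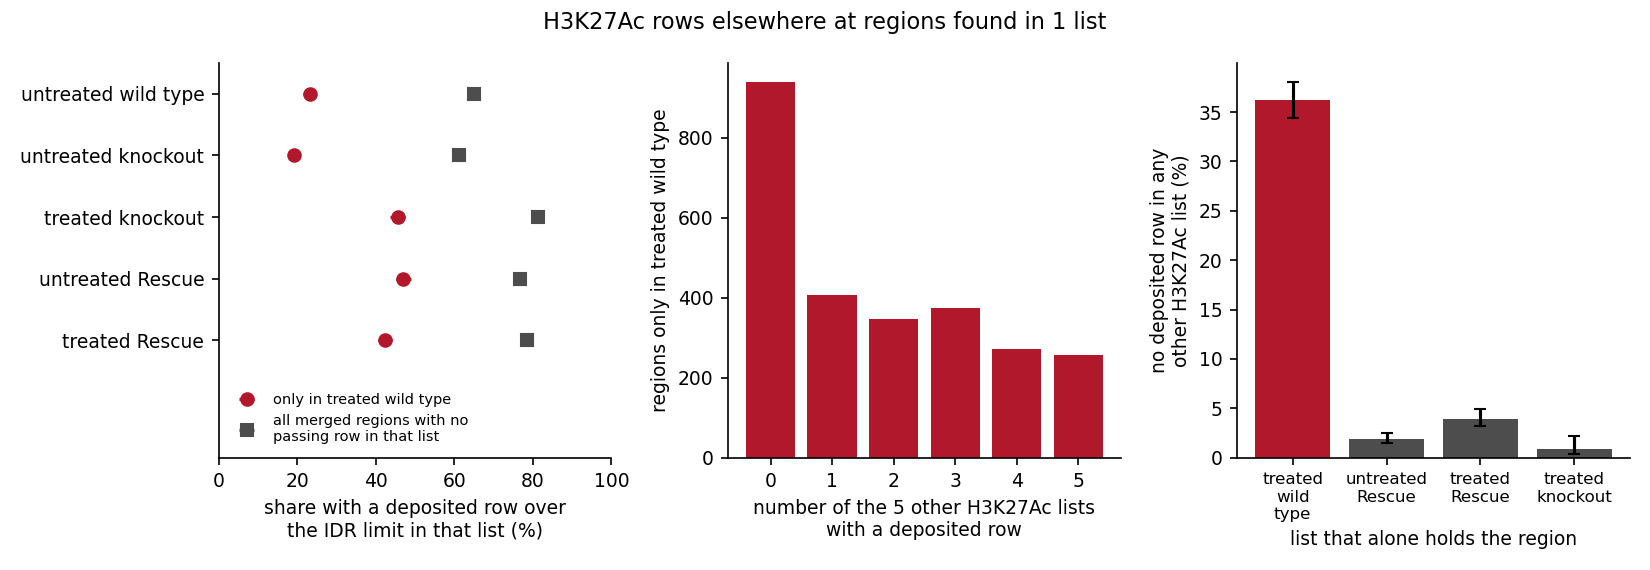
Left, the share of the 2596 regions with a deposited H3K27Ac peak over the IDR limit in each other list (red, Wilson 95% intervals), from 19.1% to 46.9%, beside all merged regions with no passing peak there (grey), from 61.2% to 81.2%. Middle, the number of regions by how many of the 5 other lists held such a peak, with 940 at none. Right, the share with none among regions found in 1 list only, 36.2% for treated wild type against 0.857% to 3.95%.

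The 940 regions with no peak elsewhere were slightly weaker than the rest of the set. Their lower replicate value had a median of 13.8 (9.91 to 43.8), against 13.9 in the 1656 with a faint peak elsewhere and 15.2 in the 256 with faint peaks in all 5 lists. They were narrower, with a median of 1251 bp against 1503 bp. They carried a passing RAD21 peak of treated wild type in 191 cases (20.3%, 17.9% to 23.01%) against 418 (25.2%, 23.2% to 27.4%). A deposited IgG peak of treated wild type lay on 58 of them (6.17%) against 213 (12.9%). The 256 regions with faint peaks in all 5 lists were the widest of these groups, at a median of 1891.5 bp, with RAD21 on 36.3% and deposited IgG on 27.7%.

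Cohesin was found on about 1 in 4 of the private regions, and under treatment in wild type far more than in any other list. A passing RAD21 peak of treated wild type overlapped 609 of 2596 regions (23.5%, 21.9% to 25.1%), where 37.9% of all merged regions had one. In untreated wild type the number was 68 (2.62%), where 11.5% of all merged regions had one. It was 91 in untreated knockout (3.51%, beside 16.2% of all), 77 in treated knockout (2.97%, beside 13.6%), 137 in untreated Rescue (5.28%, beside 24%) and 161 in treated Rescue (6.20%, beside 30.4%). In each of the 6 lists the private regions lay under the background share, and as a ratio to that share treated wild type came nearest. Each private region had a passing H3K27Ac peak of treated wild type, while 46.3% of the background regions did. The rule thus favours this order of the lists, and no conclusion is drawn from it. The share depended on the settings: it was 45.1% of the regions private to treated wild type at a global IDR of 0.01, and 44.2% with lists of equal length. The background counts whole merged regions, which are wider than the single peaks.

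PDS5A ran in the same order within wild type. A passing PDS5A peak lay on 378 regions in treated wild type (14.6%, 13.3% to 15.97%), beside 27.1% of all merged regions, and on 23 in untreated wild type (0.886%), beside 4.83%. The numbers were 15 in untreated knockout (0.578%, beside 2.05%), 50 in treated knockout (1.93%, beside 12%), 164 in untreated Rescue (6.32%, beside 28.3%) and 137 in treated Rescue (5.28%, beside 25.7%). The PDS5A lists held 12323 passing peaks in treated wild type, 13746 in untreated Rescue and 11243 in treated Rescue. At a global IDR of 0.01 in the H3K27Ac lists, PDS5A of treated wild type lay on 31.1% of the private regions, and with lists of equal length on 31.7%.

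Counting every deposited cohesin peak gave the same contrast at a higher level. RAD21 was present in treated wild type at 1609 regions (62.0%, beside 71.3% of all merged regions) and in untreated wild type at 273 (10.5%, beside 43.6%). PDS5A was present at 1309 regions (50.4%, beside 64.8%) and 202 (7.78%, beside 37.4%). The private regions thus lay nearer the background share in the lists of their own cells than in those of untreated wild type. The rule favours this direction. Private regions were chosen for H3K27Ac passing in treated and not in untreated wild type, while background regions were not. No conclusion is drawn from it.

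IgG peaks showed a like direction. Deposited IgG peaks of treated wild type lay on 271 private regions (10.4%, 9.32% to 11.7%), beside 27.2% of all merged regions, and those of untreated wild type on 8 (0.308%), beside 4.07%. Only 3 regions lay on an IgG peak that passed the IDR limit in treated wild type. Leaving out all 285 regions on a deposited IgG peak of any condition left 2311, of which 18.5% had RAD21 and 10.4% had PDS5A in treated wild type. The part of background in the overlap was not tested beyond this.

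**Figure D3:**
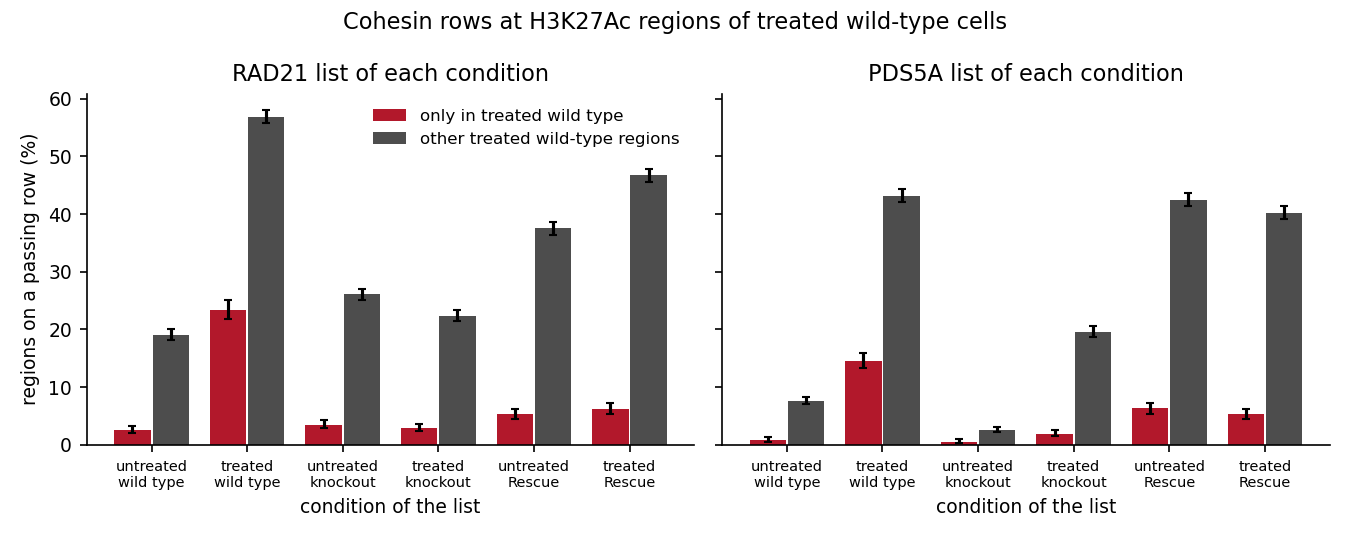
Share of H3K27Ac regions on a passing RAD21 (left) or PDS5A (right) peak of each of the 6 conditions, with Wilson 95% intervals, for the 2596 regions only in treated wild type (red) and the other 7306 treated wild-type regions (grey). The red bars are highest in treated wild type, at 23.5% and 14.6%, and stay under the grey bars in all 12 lists.

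The other treated wild-type regions carried more cohesin. In treated wild type RAD21 lay on 56.9% (55.7% to 58.0%) of the 7306 and PDS5A on 43.2% (42.0% to 44.3%), 33.4 and 28.6 points above the private regions. These intervals and those of the private regions did not overlap, but they cover counting error within 1 list and are no test. A lower share was also seen in regions found in 1 other list alone. As a ratio to the shared regions of the same list, RAD21 stood at 0.413 in treated wild type, 0.325 in untreated Rescue, 0.340 in treated Rescue and 0.339 in treated knockout, and PDS5A at 0.337, 0.359, 0.324 and 0.329. The gap was present at every strength. In the weakest of the 4 classes RAD21 lay on 16.1% of private and 44.4% of other regions, and in the strongest on 41.2% and 67.6%. For PDS5A the weakest class had 8.70% and 31.3%, and the strongest 28.2% and 53.4%. Among private regions both shares therefore went up with H3K27Ac strength, which had a median of 15.5 where RAD21 was present and 13.8 where it was not. Width had little relation to it: RAD21 lay on 22.5% of the narrowest and 24.1% of the widest of the 4 width classes of private regions.

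RAD21 and PDS5A mostly came together. Both passed at 306 private regions (11.8%), RAD21 alone at 303 (11.7%), PDS5A alone at 72 (2.77%) and neither at 1915 (73.8%). In the comparison set both passed at 36.9% and neither at 36.8%. Given RAD21, PDS5A was present at 50.2% (46.3% to 54.2%) of private and 64.8% (63.4% to 66.3%) of other regions. Given no RAD21, PDS5A was present at 3.62% and 14.6%.

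Where cohesin lay on a private region, it was often private to treated wild type too. Of the 609 regions with RAD21, 447 (73.4%, 69.8% to 76.8%) had no passing RAD21 peak in any other condition, and 270 (44.3%) had no deposited one. In the comparison set these shares were 23.5% and 2.24% of 4154. Of the 378 regions with PDS5A, 240 (63.5%) had no passing and 128 (33.9%) no deposited PDS5A peak elsewhere, against 17.8% and 1.20% of 3154. In untreated wild type, 205 of the 609 RAD21 sites (33.7%) had at least a deposited peak, against 82.2% in the comparison set. That set was chosen for H3K27Ac passing in another condition. The treated wild-type list held 16340 passing RAD21 peaks, against 3635 to 10864 in the other 5. Shares over all RAD21 or PDS5A peaks of treated wild type are not given here. These values thus do not show a trait particular to the private regions.

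The RAD21 peaks on private regions were as strong as those elsewhere in the list. Their lower replicate value had a median of 20.5 and quartiles of 14.97 and 31.6, beside a median of 21.1 on the other treated wild-type regions and 19.7 for the 11481 RAD21 peaks on no passing H3K27Ac peak of treated wild type. For PDS5A the medians were 19.2, 19.04 and 20.5. The private regions thus differed in how often cohesin was found, by 33.4 points for RAD21, while the median strength of the peaks found there was within 1 unit of −log10 p of that on the other treated wild-type regions, for RAD21 and for PDS5A.

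Cohesin sat at the centre of the regions. In treated wild type, 11.1 RAD21 peak midpoints per 100 private regions fell in the 500 bp bin just after the centre and 9.55 in the bin just before it, against 1.08 in the bin that ended 10 kb after it. The other treated wild-type regions had 25.2 in each of the central bins and 0.821 at 10 kb. In untreated wild type the private regions had 1.27 and 0.963 in the central bins. Widening the search to 1 kb raised the share of private regions with RAD21 to 26.3%, 10 kb to 44.5% and 50 kb to 79.4%, against 58.2%, 68.6% and 89.6%. Private regions with no overlapping RAD21 peak had the nearest one at a median of 22.8 kb, and the corresponding comparison regions at 22.1 kb.

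**Figure D4:**
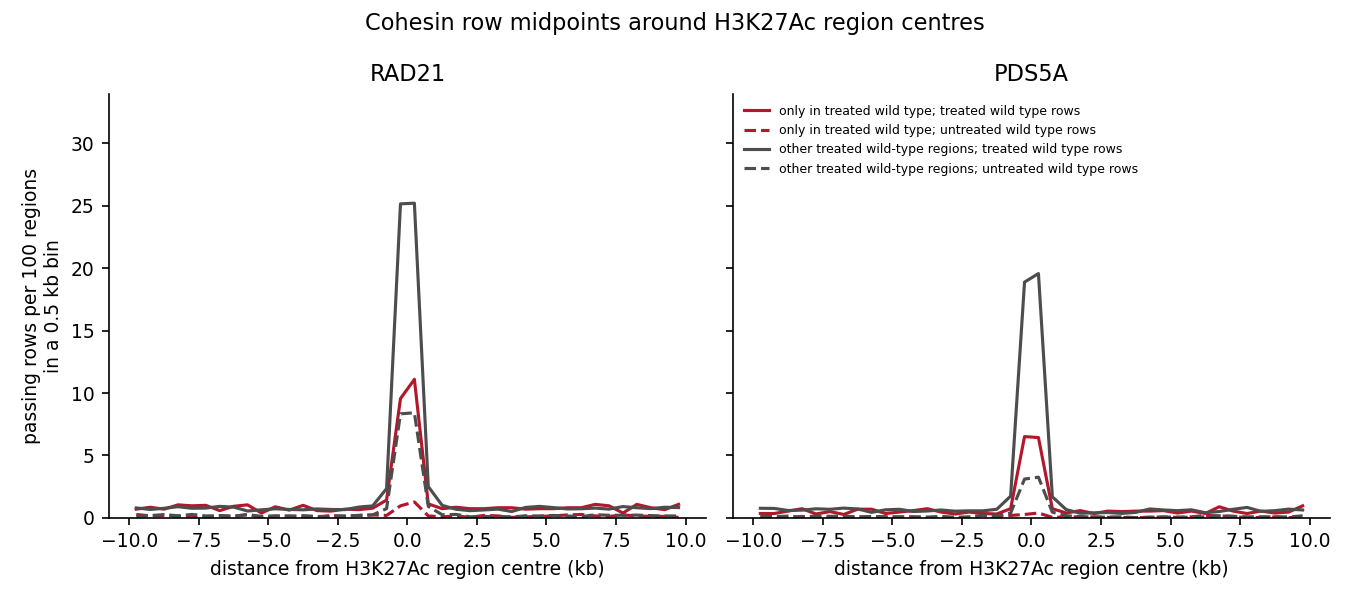
Passing RAD21 (left) and PDS5A (right) peak midpoints per 100 H3K27Ac regions in 0.5 kb bins by distance from the region centre, for peaks of treated (solid) and untreated (dashed) wild type, at the 2596 private regions (red) and the 7306 others (grey). RAD21 of treated wild type peaks at 11.1 per 100 at the centre of private regions and at 25.2 at the others, while the untreated list reaches 1.27 at private regions.

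The strongest private region was on chromosome 19 (GRCh37) from 54047851 to 54049358, with replicate values of 71.9 and 71.6. It lay on RAD21 with 40.2 and 31.7 and on PDS5A with 28.4 and 15.998 in treated wild type, and on no cohesin or IgG peak of any other condition. Its H3K27Ac was present but over the limit in 4 of the other 5 lists, with replicate values of 7.21 and 8.62 in untreated wild type, 11.7 and 4.52 in treated knockout, 10.1 and 11.1 in untreated Rescue and 7.08 and 6.90 in treated Rescue. It was thus listed, weakly, in 4 of the 5 conditions in which it did not pass.

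The second strongest lay in a stretch of chromosome 5 described with the runs below, from 29191374 to 29192433, with replicate values of 57.3 and 85.5 and the lowest IDR of the set. RAD21 reached 91.5 and 69.1 there and PDS5A 44.6 and 32.4. The same site had faint H3K27Ac peaks in untreated wild type (4.33 and 4.28) and treated Rescue (11.9 and 7.104), and a faint RAD21 peak in treated Rescue. A deposited IgG peak of treated wild type was also present, at 5.06 and 8.77. The fourth, on chromosome 2 from 121671190 to 121674494, had H3K27Ac at 45.4 and 88.3, RAD21 at 83.6 and 42.8, and PDS5A at 40.8 and 28.0. Its only H3K27Ac peak elsewhere was faint, in treated knockout (10.1 and 4.50).

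Of the 10 strongest regions, 8 lay on passing RAD21 and 5 on passing PDS5A of treated wild type, 3 on a deposited IgG peak of treated wild type, and 2 had no H3K27Ac peak elsewhere. The third strongest, on chromosome 3 from 111311714 to 111314517 (47.1 and 48.9), had neither cohesin peak passing, an IgG peak of 7.14 and 11.1, and faint H3K27Ac in all 5 other lists. The seventh, on chromosome 5 from 37769034 to 37773934 (41.6 and 77.4), had RAD21 at 56.6 and 39.6, PDS5A at 24.8 and 17.1, and IgG at 6.23 and 11.2. The tenth, on chromosome 5 from 172158347 to 172161278 (39.1 and 60.9), had RAD21 at 24.7 and 13.6, and PDS5A just over the limit. The others were on chromosome 20 from 33850810 to 33853186 (42.9 and 46.1, with both cohesin peaks passing) and on chromosome 9 from 127154070 to 127155710 (40.9 and 39.2, with RAD21 passing).

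The strongest regions with no H3K27Ac peak in any other list were led by chromosome 18 from 13795881 to 13797132, the fifth strongest of all. Its replicate values were 43.8 and 49.3. RAD21 (12.2 and 8.08) and PDS5A (8.25 and 8.94) were deposited there in treated wild type but over the limit. The lists of all 4 antibodies in the other 5 conditions held 0 peaks there. The next was on chromosome 1 from 68020397 to 68022227 (39.1 and 41.7), with RAD21 passing at 23.9 and 12.6 and PDS5A just over the limit at an IDR of 0.0505. Chromosome 5 from 33049006 to 33051257 (35.2 and 55.0) had strong RAD21 (57.0 and 56.9) and PDS5A (32.4 and 26.5), with a deposited IgG peak. Chromosome 7 from 120724594 to 120726293 (34.1 and 48.9) had both cohesin peaks deposited and neither passing. The last of the 5, on chromosome 5 from 14104618 to 14111592 (33.6 and 50.8), had RAD21 passing at 19.1 and 22.6. These 5 sites carried no deposited peak of H3K27Ac, RAD21, PDS5A or IgG in the other 5 conditions, as did 874 of the 2596 regions (33.7%, 31.9% to 35.5%), and 157 of these carried passing RAD21 or PDS5A in treated wild type. The 874 are by definition among the 940 with no H3K27Ac peak elsewhere. Every merged region outside the 2596 had a passing H3K27Ac peak in another condition, so no background share can stand beside this count.

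Strong acetylation without passing cohesin was also found. Beside the regions on chromosomes 3 and 18 above, the strongest such regions spanned 194290831 to 194295452 on chromosome 3 (38.4 and 61.6), 121954009 to 121955893 on chromosome 2 (37.0 and 65.2) and 148351584 to 148354118 on chromosome 5 (38.0 and 36.3). All 5 had a deposited RAD21 peak over the limit, with global IDR values from 0.122 to 0.492.

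The widest private region spanned 11262 bp on chromosome 5 from 33850058 to 33861319, with H3K27Ac at 23.3 and 49.1, RAD21 at 31.6 and 53.7 and PDS5A at 23.9 and 30.0. It had no deposited peak of any antibody in the other 5 conditions, and an IgG peak of treated wild type at 6.78 and 6.997. The next widest spanned 7621 bp on chromosome 14 (18.6 and 47.6), 6975 bp on chromosome 5 (33.6 and 50.8), 6496 bp on chromosome 8 (19.3 and 53.7) and 6444 bp on chromosome 17 (31.5 and 46.4). Those on chromosomes 14, 8 and 17 had H3K27Ac over the limit in all 5 other lists. On chromosome 8 the replicates disagreed there, with values of 40.7 and 4.69 in untreated wild type and 41.4 and 9.86 in untreated knockout. In the Rescue lists they were 4.01 and 5.81 untreated and 11.5 and 11.2 treated, the latter at an IDR of 0.0506.

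The private regions gathered. Another private region lay within 20 kb of 707 (27.2%), within 50 kb of 1048 (40.4%) and within 200 kb of 1701 (65.5%), and the median distance to the nearest was 81.4 kb. Such distances depend on how many regions there are: the share within 50 kb was 23.4% of the 731 regions at a global IDR of 0.01 and 26.4% of the 1564 with lists of equal length. Distances among the other treated wild-type regions are not given here. Among all treated wild-type regions, the nearest by distance was itself private for 1119 of 2596 (43.1%, 41.2% to 45.0%). For the 7306 others the nearest was private in 21.0% (20.1% to 21.97%), where 26.2% of all were. The excess faded with steps along the chromosome. The next region after a private one was private in 39.0% (37.1% to 40.9%), the third in 32.6% and the tenth in 29.9% (28.2% to 31.8%), against 21.7%, 23.95% and 24.9% after another region. Neighbouring peaks can be parts of 1 acetylated domain: with nearest regions closer than 5 kb set aside, the share was 39.7% of 1939 private regions and 20.4% of the others.

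The gathering was spread over many places. Linking private regions no more than 50 kb apart gave 421 chains of 2 or more, which held 1048 regions, and 19 chains of 5 or more, which held 119. The longest chain held 18. Windows of 1 Mb with a private region numbered 1145. In 523 of them there was 1 such region, and 115 held 5 or more and 765 regions in all. Chains and window counts of the other treated wild-type regions are not given here. These counts alone thus do not show a trait particular to the private regions. Leaving out the 8 fullest windows, with 104 regions, moved the share with a private nearest region to 41.6%, from 43.1%.

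The fullest window, chromosome 5 from 14000001 to 15000000, held 23 private regions among 29 treated wild-type regions. Of these 23, 10 had no H3K27Ac peak elsewhere, 3 lay on RAD21 and 2 on PDS5A. Deposited H3K27Ac peaks in the window numbered 143 in treated wild type against 15 in untreated wild type, 19 in untreated knockout, 49 in treated knockout, 34 in untreated Rescue and 29 in treated Rescue. RAD21 peaks there numbered 28 treated against 6 untreated in wild type, PDS5A 22 against 9 and IgG 11 against 1. Deposited peaks of all 4 antibodies, IgG included, were thus more numerous in the window under treatment, as they were over all autosomes. There the treated to untreated ratio in wild type was 1.95 for H3K27Ac, 2.50 for RAD21, 2.41 for PDS5A and 7.21 for IgG. The PDS5A counts of the window stood near that ratio, and its IgG counts rested on 1 untreated peak.

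Chromosome 7 from 116000001 to 117000000 followed with 17 private of 20 regions, 13 of them with no H3K27Ac peak elsewhere. It held 80 deposited H3K27Ac peaks in treated wild type against 6 to 10 in the other 5 lists. The windows after it were on chromosome 5 from 71000001 (13 of 16), chromosome 1 from 68000001 (11 of 14), chromosome 6 from 56000001 (10 of 12), chromosome 22 from 37000001 (10 of 19), chromosome 2 from 121000001 (10 of 21) and chromosome 5 from 148000001 (10 of 21). Private regions in these 8 windows lay on RAD21 in 0 to 5 cases per window.

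Runs of neighbouring treated wild-type regions that were all private took 2 forms. Some were compact. On chromosome 5 from 14160821 to 14247447, 10 in a row fell in 86.6 kb, with no passing RAD21 or PDS5A peak on any. Deposited H3K27Ac peaks there numbered 28 in treated wild type, 3 in untreated wild type, 2 in untreated knockout, 18 in treated knockout, 11 in untreated Rescue and 7 in treated Rescue. Between 56517840 and 56778144 on chromosome 6 and between 116151083 and 116441776 on chromosome 7, runs of 10 spanned 260.3 and 290.7 kb, with 49 and 45 deposited H3K27Ac peaks in treated wild type against 3 to 14 and 3 to 4 in the other lists.

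Other runs crossed long stretches with few peaks in any list. On chromosome 5 from 21459199 to 29795746, 11 private regions were the only treated wild-type regions in 8336.55 kb. That stretch held 45 deposited H3K27Ac peaks in treated wild type and 3 to 5 in each other list. RAD21 numbered 49 treated against 0 untreated in wild type, PDS5A 27 against 1, and IgG 6 against 0. On chromosome 7 from 117305891 to 123175081, 11 private regions in 5869.19 kb came with 36 deposited H3K27Ac peaks against 1 to 5, RAD21 47 against 3, PDS5A 35 against 0 and IgG 7 against 0. In both stretches the deposited peaks of each antibody, IgG included, were more numerous in treated than untreated wild type, as they were over all autosomes. The IgG counts were small, with 0 untreated peaks in either stretch. DNA content, signal and background cannot be told apart in these numbers, nor in the shares by chromosome given next.

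Chromosomes differed in their share of private regions. It was highest on chromosome 18, at 44.0% (37 of 84, interval 33.9% to 54.7%), and on chromosome 5, at 39.0% (221 of 566, 35.1% to 43.1%), followed by chromosomes 7 (34.9%), 4 (34.8%) and 3 (32.7%). It was lowest on chromosomes 16 (16.9%), 20 (17.6%), 19 (17.6%) and 17 (19.9%). The share of private regions with no H3K27Ac peak elsewhere was highest on chromosomes 5 (109 of 221) and 14 (35 of 71), at 49.3% on each, against 17.6% (3 of 17) on chromosome 21, the lowest.

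Peaks of the other antibodies moved with this share. The ratio of deposited RAD21 peaks in treated to untreated wild type was 2.50 over all autosomes, and ran from 1.86 on chromosome 20 to 3.23 on chromosome 3, with 2.87 on chromosome 5. Across the 22 chromosomes the share of private regions had a Spearman rho of 0.855 with that RAD21 ratio, 0.723 with the PDS5A ratio and 0.586 with the IgG ratio. These are descriptions: the chromosomes share the same libraries and list lengths, and IgG ratios rest on as few as 4 untreated peaks. Without chromosomes 5 and 7, a choice made after their shares were seen, 39.3% of private regions had another within 50 kb and 22.1% lay on RAD21.

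**Figure D5:**
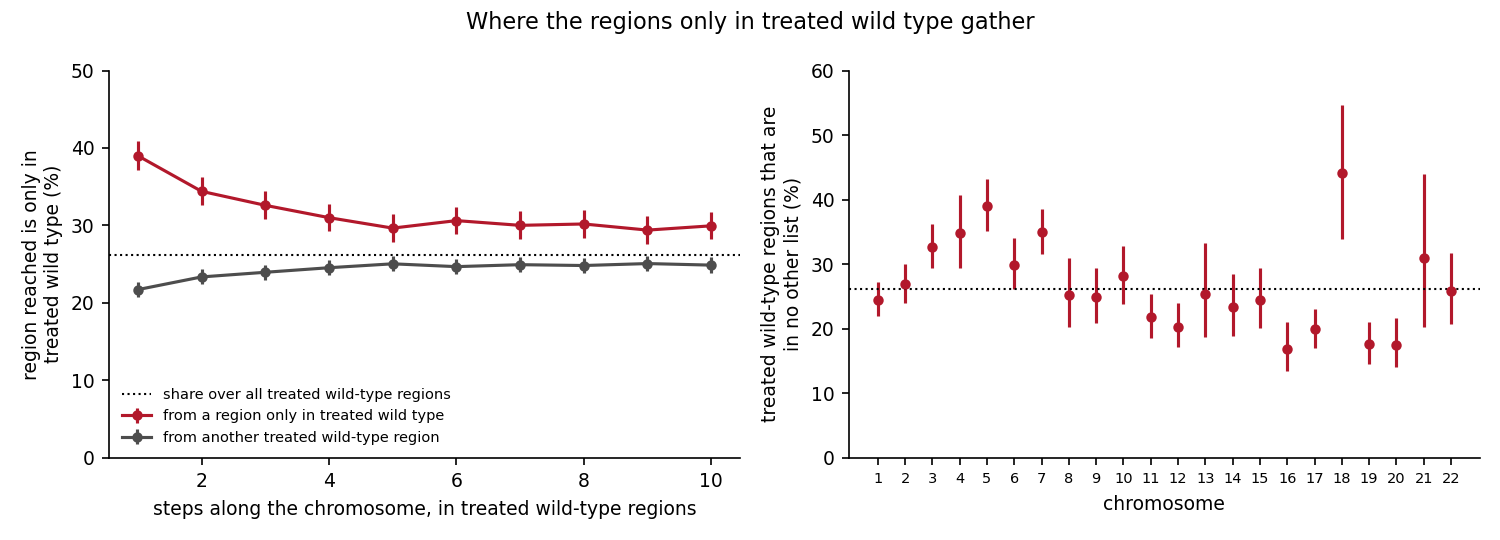
Left, the percentage of regions reached after 1 to 10 steps along the treated wild-type list that were private to it, from a private region (red, 39.0% at 1 step and 29.9% at 10) and from another region (grey, 21.7% and 24.9%), with the overall 26.2% dotted. Right, the percentage of treated wild-type regions that were private on each chromosome, from 16.9% to 44.0%; bars are Wilson 95% intervals.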

How the data were processed

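Analysed were 24 peak lists of H3K27Ac, RAD21, PDS5A and IgG, which join 48 of 60 samples; the 12 H2A samples were not used here. The submitters' processing notes name MACS2 2.2.7.1, Bowtie2 2.4.2, deepTools 3.5.1, bedtools 2.30, SAMtools 1.16, Trimmomatic and FastQC and the build GRCh37; the order of steps, the peak threshold, the control and the IDR version are not given in the sources used here. As deposited by the authors, each peak has a global IDR on a −log10 scale and a −log10 p from each replicate, never under 3. No per-sample column was left unmapped (0 of them).

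A region overlapped a peak at 1 bp or more. The comparison set was looked up under its strongest treated wild-type peak, and the background under whole merged regions, which are wider. Regions named by position were the 10 strongest, the 5 strongest with no H3K27Ac peak elsewhere, the 5 strongest without passing cohesin, the 5 widest, 3 on each side of the limit, 8 windows and 5 runs. The rule, members and comparisons were chosen with earlier results of these data known. No gene was read from a coordinate, because the gene table at hand is of another build, and no sequence is given. Alternatives are listed in the closing section, and 2 sets of regions left out were chosen after the data were seen. Computation used pandas 2.3.3 and numpy 2.4.6 with scipy 1.17.1 under Python 3.11.15, plots used matplotlib 3.10.9, and the interval code was tested on simulated data.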

Additional observations from a re-analysis of the deposited data

Results flagged for a closer look

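The share of the 2596 regions on passing cohesin peaks moved in opposite directions under osimertinib in different genotypes. These differences were not tested, since each condition had 1 list, and for RAD21 the treated and untreated intervals overlapped in knockout (2.38% to 3.69% and 2.86% to 4.28%) and in Rescue (5.34% to 7.20% and 4.48% to 6.21%), as they did for PDS5A in Rescue (4.48% to 6.21% and 5.44% to 7.32%). For RAD21 the treated minus untreated share was 20.8 points in wild type and 0.924 points in Rescue, and −0.539 points in knockout. For PDS5A it was 13.7 points in wild type and 1.35 points in knockout, and −1.04 points in Rescue. The shares over all merged regions moved the same way. For RAD21 they went from 11.5% to 37.9% in wild type, 16.2% to 13.6% in knockout and 24% to 30.4% in Rescue, and for PDS5A from 4.83% to 27.1%, 2.05% to 12% and 28.3% to 25.7%. So did the passing lists: RAD21 peaks went from 3635 to 16340 in wild type, 8993 to 10864 in Rescue and 5283 to 4293 in knockout, and PDS5A peaks from 1731 to 12323 in wild type, 901 to 4021 in knockout and 13746 to 11243 in Rescue. The regions were picked in treated wild type, and the part of that choice and of list length in these differences was not tested.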

How the results depend on the processing

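Of 93 alternatives, 33 moved a value by less than its counting interval (for a count, by less than 1.5 times), and 60 moved it further. The cause was not tested. A reversal was possible only for the cohesin differences from the other regions, by strength or width class, and 0 were seen. No paired analysis was possible because each list joins both replicates and the results come from no test. A single list per condition, unknown depth and unequal list lengths limit every share given.

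At a global IDR of 0.01 in all 6 lists there were 731 regions, with a median strength of 22.1, a median width of 1931 bp, RAD21 on 45.1%, PDS5A on 31.1%, a faint peak in untreated wild type at 50.8% and another member within 50 kb of 23.4%. At 0.1 these were 4058, 11.5, 1234 bp, 18.2%, 10.7%, 15.3% and 46.9%. With lists of equal length (5045 peaks) they were 1564, 19.3, 1679 bp, 44.2%, 31.7%, 53.1% and 26.4%. For the 940 regions with no deposited peak elsewhere they were 13.8, 1251 bp, RAD21 20.3%, PDS5A 10.96% and 26.7% within 50 kb, the faint peak being absent by construction. Merging peaks within 1000 bp gave 1481 bp, RAD21 on 25.2% and 34.2% within 50 kb. Leaving out regions on IgG gave RAD21 18.5%, PDS5A 10.4% and a faint untreated peak at 21.0%.

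Every deposited cohesin peak gave RAD21 62.0% and PDS5A 50.4%, cohesin peaks at an IDR of 0.01 gave 14.3% and 6.47%, and peaks within 1000 bp gave 26.3% and 16.3%. A faint untreated peak within 1000 bp was present at 28.9%. Members within 20 kb and 200 kb gave 27.2% and 65.5%, and a nearest region over 5 kb away was a member in 39.7%. The RAD21 difference from the other regions was −28.2, −30.3, −27.2 and −26.4 points in strength classes 1 to 4 (weakest to strongest), and −30.6, −37.9 and −29.2 in width classes 1, 2 and 4. For PDS5A it was −22.6, −23.9, −25.7 and −25.3 by strength, and −32.2, −31.6 and −24.3 in width classes 2, 3 and 4.

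With the boundaries or values of 1 replicate at a time, the number of regions was 2600 to 2602, median strength 13.9 to 20.8, width 1099.5 to 1320 bp, RAD21 23.3% to 23.4%, PDS5A 14.5% to 14.6%, a faint untreated peak 23.1% to 23.2%, and another member within 50 kb 40.1% to 40.4%. The peaks were still those that passed the IDR of both replicates together, so the number and the overlaps could hardly change. Whether either replicate alone would give these regions was not tested.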
